A study of Mus musculus with 30 samples.

Results

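The 33 genes described here encode chaperones, folding enzymes, degradation factors and signalling proteins of the endoplasmic reticulum (ER), the compartment in which secreted and membrane proteins are folded. They were taken as a list of named ER stress and chaperone genes, and each was read from 1 probe set of the array, the one with the highest mean over the 30 arrays among those annotated to that gene alone. All 33 genes had such a probe set, of 18193 genes in all, and all 33 were among the 12998 genes tested. The RNA came from whole salivary gland of female NOD.H-2h4 mice, an inbred strain prone to autoimmune inflammation of this gland, and was hybridised to Affymetrix Mouse Genome 430 2.0 arrays. Every mouse had been given 1 intraperitoneal injection of 20 mg/kg at 4 weeks of age, either of an antibody against CD40L, the T cell ligand of CD40, or of a human IgG1 isotype antibody as control. Glands were collected at 3 ages, week 8, week 16 and week 24, and each of the 6 combinations of antibody and age was measured on 5 arrays. No untreated mice and no other strain were included in these groups. The labels call the arrays of a group biological replicates without saying that each was a separate mouse, so that p-values measure the spread between these samples.

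The unfolded protein response is the program by which a cell adjusts the folding capacity of its ER. Its sensors sit in the ER membrane: IRE1 (Ern1) splices the mRNA of the transcription factor XBP1, PERK (Eif2ak3) slows translation and favours that of ATF4, and ATF6 is cut in the Golgi to release a transcription factor. Their targets include ER chaperones, disulfide isomerases and the machinery of ER-associated degradation (ERAD), which moves misfolded proteins out to the proteasome. Salivary acinar cells, granular duct cells and plasma cells all secrete large amounts of protein and carry a well developed ER.

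Levels are log2 values as deposited, so a difference of 1 is a doubling, and a level of one probe set is not set against that of another. Gapdh and beta-actin are each measured near the 3' and the 5' end of the transcript, and the mean log2 gap between these ends, which widens as RNA degrades, was used as a measure of RNA quality. The group means of this 3' to 5' gap were 0.567 (week 8), 0.291 (week 16) and 0.406 (week 24) in the control arm and 0.369, 0.260 and 0.200 in the treated arm. Control week 8 replicates 3 and 4 and control week 24 replicate 1 had the lowest median correlations with the other arrays, at 0.967, 0.953 and 0.969. The parotid amylase gene Amy1 ranged from 6.58 to 13.70 over the arrays, and high and low arrays occurred in every group but the treated week 8 group (13.18 to 13.70). Of the acinar markers 5 of 6, and of the granular duct markers 2 of 2, lay above the array median on all arrays. The mean of a marker list is taken over its genes with a probe set, and counts of calls over its tested genes. The means so include Pou2af1 (plasma cells), Fcrla (B cells) and Cd247 (T cells), which were not tested. In such bulk samples, fewer cells of a type and less RNA per cell cannot be told apart.

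**Figure D1:**
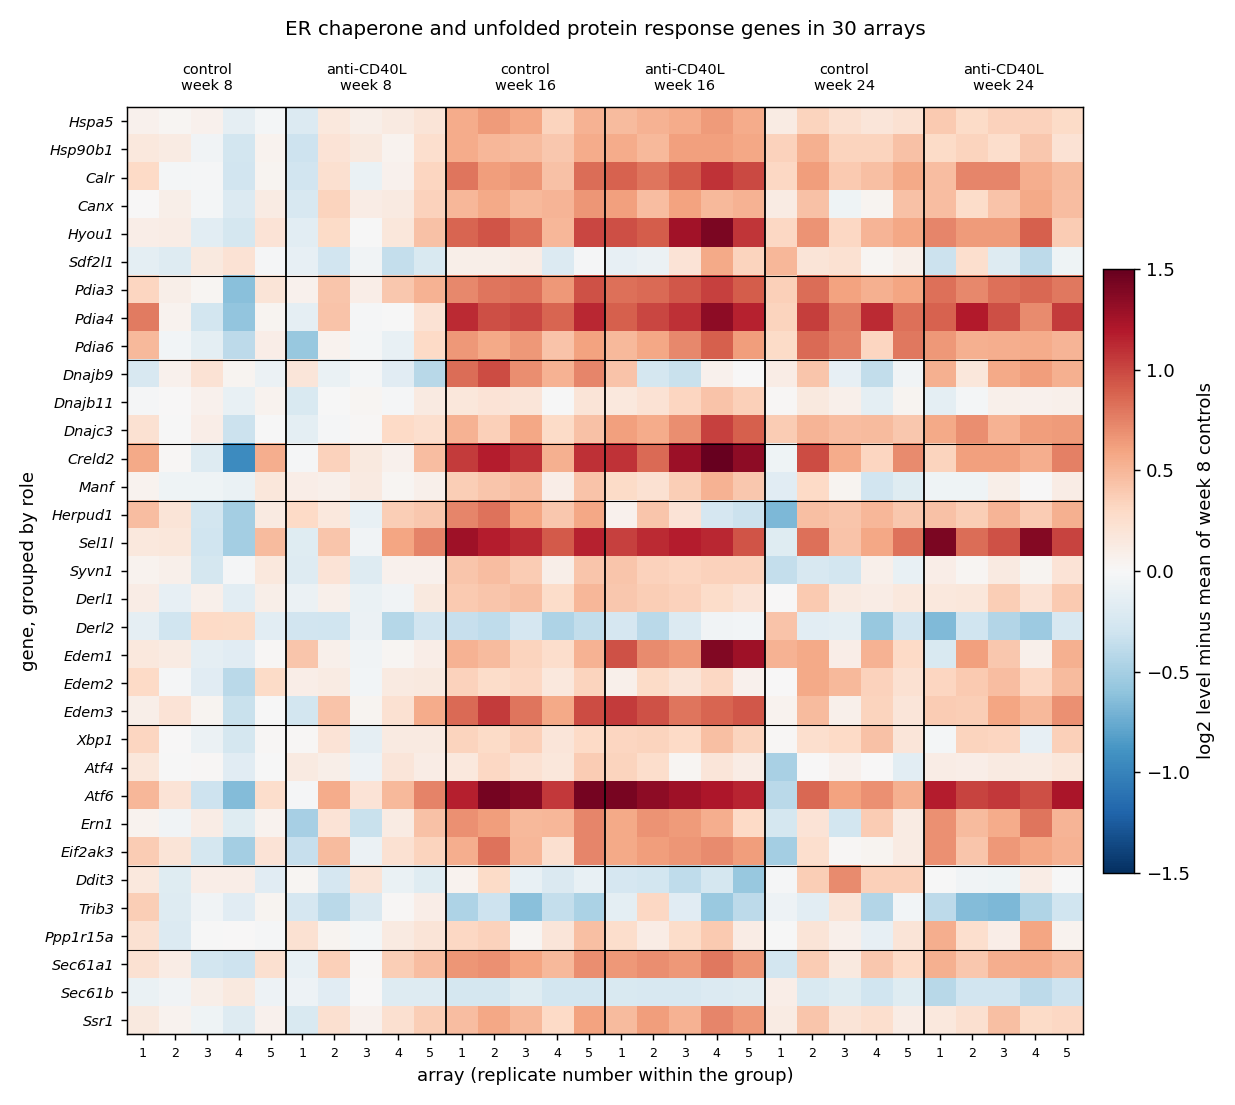
Log2 level of each of the 33 genes (rows, grouped by role) in each of the 30 arrays (columns, by group and replicate), minus the gene's mean in the week 8 controls; the color scale gives this difference. Most rows are higher in both week 16 groups, with Derl2, Trib3 and Sec61b lower in the week 16 controls.

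The first question was how the 33 genes changed as the control glands aged from week 8 to week 16. Most of them rose: 27 were called higher and 3 lower at an adjusted p under 0.05 (limma moderated test, Benjamini-Hochberg over all genes tested). Among all genes tested 28.4% were called higher and 18.1% lower in this comparison. The median change of the 33 genes was 0.50 on the log2 scale, against 0.06 over all genes tested. The largest rises were those of the sensor Atf6 (1.30 ± 0.19, log2 ± SE, n = 5 per group), the degradation adaptor Sel1l (1.13 ± 0.19), the isomerase Pdia4 (1.02 ± 0.17) and the ER stress protein Creld2 (0.99 ± 0.22). Over 11 alternative settings of the processing, their lowest changes were 0.40 for Atf6, 0.57 for Sel1l, 0.33 for Pdia4 and 0.33 for Creld2. Derl2, Trib3 and Sec61b fell, and Sdf2l1, Dnajb11 and Ddit3 did not pass. In controls, 25 of the 33 genes had their highest group mean at week 16, 3 at week 8 and 5 at week 24. Of all genes tested, 41.6% had it at week 16.

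The 3' to 5' gap moved with this result, since it averaged 0.567 in the week 8 controls and 0.291 in the week 16 controls. With it as a covariate, 9 of the 33 genes were called in place of 30: Hspa5, Hsp90b1, Calr, Hyou1, Pdia3, Dnajb9, Edem3 and Atf6 higher and Trib3 lower. Among all genes tested 620 were then called, in place of 6046. Without the 3 arrays of low correlation, 21 of the 33 were called, 19 higher and 2 lower, and 3554 of all genes tested. Markers of several cell types were called higher over the same step. For plasma cells 5 of 7 were (mean level 6.83 at week 8 and 8.02 at week 16). The same held for 4 of 6 macrophage (8.40 and 8.87) and 4 of 6 fibroblast markers (9.47 and 10.03). Of the myoepithelial markers 3 of 5 rose (8.53 and 9.09), and of the granular duct markers 1 of 2 (13.33 and 13.69). Of the 6 acinar markers 2 were called higher, but 3 had a change below 0, and their mean was 11.51 and then 11.47. Of the 4 B cell markers 1 fell, and of the 5 T cell and 5 parotid markers 0 were called, with 0 of each at an unadjusted p under 0.05 in limma. The part of these cell types in the rise of the 33 genes was not tested.

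**Figure D2:**
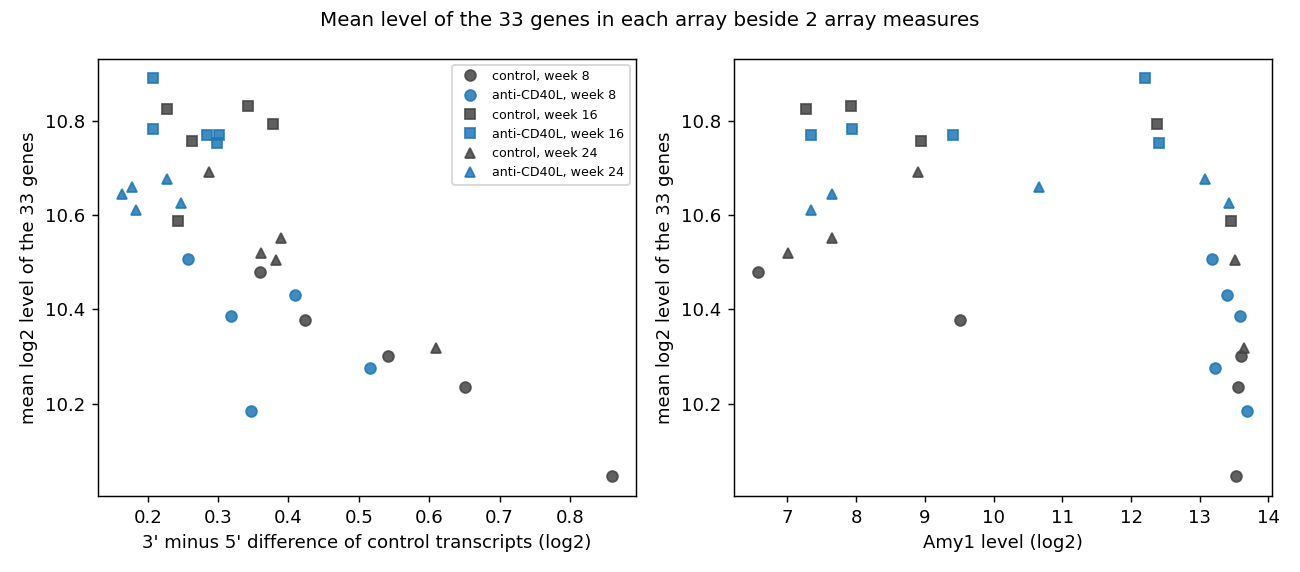
Mean log2 level of the 33 genes in each array against the 3' to 5' gap of the control probe sets (3' minus 5', log2) and against the log2 level of Amy1; color and symbol give treatment and week. Control week 8 replicate 4 has the lowest mean level, 10.05, and the highest 3' to 5' gap, 0.859.

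The promoters of these genes were searched for the ER stress response element, a sequence that ATF6 and XBP1 are known to bind. Whether either factor acted on these genes was not tested. The 33 genes were listed as ER stress and chaperone genes, so a high share with this element cannot be read as a result of these arrays. RefSeq promoter windows of genome build GRCm38.p6, 250 bases before to 50 after the start, were matched for 28 of the 33 genes, and Sec61a1, Derl1, Atf6, Hyou1 and Manf had no entry. The element ERSE was searched as CCAAT, 9 bases of any kind and CCACG, and ERSE-II as ATTGG, 1 base and CCACG, on both strands. Only exact matches to these letters were counted, and imperfect copies were not searched. ERSE was found for 8 of the 28 genes, or 28.6%, and in 0.119% of the 32851 promoters of the table. ERSE-II was found for 2 of them, or 7.14%, against 0.0365% of all promoters. In the following windows, read 5′ to 3′ on the strand of the gene, capitals mark the element and 8 bases are shown on either side. On the opposite strand the element reads CGTGG, 9 bases and ATTGG, as in Calr, Creld2 and the second site of Hsp90b1.
Hspa5: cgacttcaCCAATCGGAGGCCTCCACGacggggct
Hsp90b1, first site: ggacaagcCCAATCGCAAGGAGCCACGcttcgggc
Hsp90b1, second site: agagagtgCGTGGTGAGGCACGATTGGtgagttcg
Calr: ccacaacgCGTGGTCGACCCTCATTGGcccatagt
Canx: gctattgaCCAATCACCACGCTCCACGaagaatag
Pdia6: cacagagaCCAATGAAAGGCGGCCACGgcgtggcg
Dnajc3: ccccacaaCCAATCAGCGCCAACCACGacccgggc
Creld2: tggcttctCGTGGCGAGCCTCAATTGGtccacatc
Syvn1: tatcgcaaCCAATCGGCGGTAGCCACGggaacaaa
Dnajb11, ERSE-II: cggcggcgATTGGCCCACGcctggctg
Herpud1, ERSE-II: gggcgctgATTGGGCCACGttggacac

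The Hspa5 window lies at chr2:34772017-34772051 on the plus strand, and its element begins 65 bases before the start of the gene. Those of Syvn1 (chr19:6046524-6046558) and Herpud1 (chr8:94386369-94386395) begin 44 and 52 bases before the start, and that of the first Hsp90b1 site (chr10:86705630-86705664, minus strand) begins 212 bases before it. The Dnajb11 element (chr16:22857844-22857870) begins 8 bases into the transcript. A further element searched, the core TGACGTGG bound by XBP1 and ATF6, was found for 0 of the 28 genes and in 0.676% of all promoters. The amino acid response element of ATF4, TGATG, 1 base and AA, was found for Herpud1 and Trib3, or 7.14%, against 3.97% of all promoters. These matches describe the letters of the windows.

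Of the 10 genes with ERSE or ERSE-II, 9 rose and 0 fell in controls from week 8 to week 16, with changes from 0.15 to 0.99 and a median of 0.54. Of the 18 genes with a window and neither element, 13 rose and 3 fell, with a median of 0.36, and the sets were not tested against each other. The gene with the clearest difference between treatments, Dnajb9, is among these 18. The 250 bases before its start (chr12:44210069-44210318, minus strand) are printed with those of Hspa5 (chr2:34771840-34772089, plus strand) for comparison, with the exact ERSE match of Hspa5 in capitals.
Dnajb9: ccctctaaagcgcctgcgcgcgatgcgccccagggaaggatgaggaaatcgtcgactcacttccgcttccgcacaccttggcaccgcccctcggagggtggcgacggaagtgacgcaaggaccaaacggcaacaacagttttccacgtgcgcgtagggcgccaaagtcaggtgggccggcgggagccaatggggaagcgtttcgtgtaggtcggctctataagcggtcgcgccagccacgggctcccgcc
Hspa5: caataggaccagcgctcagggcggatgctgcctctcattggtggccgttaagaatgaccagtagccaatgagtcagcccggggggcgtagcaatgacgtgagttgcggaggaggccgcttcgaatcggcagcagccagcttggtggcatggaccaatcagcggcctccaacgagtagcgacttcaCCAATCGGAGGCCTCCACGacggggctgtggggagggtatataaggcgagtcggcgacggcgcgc

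Of the 6 chaperones of the ER lumen and membrane, 5 rose in control glands by week 16. Hspa5, the major ER chaperone BiP, had log2 levels of 12.60, 12.56, 12.59, 12.40 and 12.51 in the week 8 controls and 13.09, 13.16, 13.11, 12.86 and 13.06 in the week 16 controls. Every week 16 array was above every week 8 array, a rise of 0.53 ± 0.08 (adjusted p = 3.16e-05). Hsp90b1, or GRP94, the HSP90 of the ER, was at 11.67, 11.64, 11.47, 11.24 and 11.57 and then at 12.08, 12.02, 11.996, 11.92 and 12.07. These groups did not overlap either, and the rise was 0.50 ± 0.09 (adjusted p = 0.000182). Calr, the calcium-binding lectin chaperone calreticulin, went from 11.57, 11.25, 11.25, 10.99 and 11.31 to 12.08, 11.90, 11.94, 11.72 and 12.12. It rose by 0.68 ± 0.11 with no overlap (adjusted p = 8.69e-05). Canx, its membrane-bound counterpart calnexin, was at 11.30, 11.38, 11.26, 11.09 and 11.42 at week 8 and 11.79, 11.86, 11.78, 11.80 and 11.95 at week 16. The rise of Canx was 0.55 ± 0.10, again with no overlap (adjusted p = 0.000268).

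Hyou1, an HSP70-related exchange factor of BiP, stood at 9.91, 9.93, 9.66, 9.56 and 10.02 in the week 8 controls and at 10.68, 10.76, 10.64, 10.31 and 10.81 in the week 16 controls. It had the largest rise of the 6 chaperones, 0.83 ± 0.13, and its groups did not overlap (adjusted p = 5.7e-05). Sdf2l1, which keeps client proteins soluble together with the co-chaperone Dnajb11, was the exception, at 10.02, 9.96, 10.31, 10.38 and 10.14 and 10.25, 10.24, 10.27, 9.95 and 10.14. The groups overlapped, and the change was 0.01 ± 0.13 (adjusted p = 0.948).

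All 3 disulfide isomerases, which form and rearrange disulfide bonds in new proteins, rose in the controls. Pdia3, which works on glycoproteins held by calnexin and calreticulin, was at 11.70, 11.47, 11.41, 10.75 and 11.57 at week 8 and 12.10, 12.18, 12.20, 12.03 and 12.33 at week 16. Its lowest array was control week 8 replicate 4, and the groups did not overlap (0.79 ± 0.12, adjusted p = 6.45e-05). Pdia4 was at 8.77, 8.05, 7.73, 7.40 and 8.03 and then at 9.12, 8.97, 8.997, 8.88 and 9.12. This was a rise of 1.02 ± 0.17 in which every week 16 array exceeded every week 8 array (adjusted p = 0.000104). Pdia6, a partner of BiP, was at 10.74, 10.21, 10.11, 9.86 and 10.36 and then 10.91, 10.83, 10.91, 10.69 and 10.86, and replicate 1 of week 8 overlapped the week 16 group. Its change was 0.58 ± 0.14 (adjusted p = 0.00219).

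The co-chaperones with a J domain, which bring clients to BiP and trigger its ATPase, were less uniform. Dnajb9, or ERdj4, was at 10.24, 10.56, 10.71, 10.53 and 10.40 in the week 8 controls and at 11.33, 11.46, 11.18, 11.01 and 11.22 in the week 16 controls, with no overlap (0.75 ± 0.14, adjusted p = 0.000272). Dnajc3, or p58IPK, which also inhibits PERK, was at 11.02, 10.79, 10.89, 10.47 and 10.79 and then 11.31, 11.15, 11.37, 11.08 and 11.23, with no overlap (0.44 ± 0.10, adjusted p = 0.00135). Dnajb11, or ERdj3, was at 10.20, 10.23, 10.29, 10.11 and 10.27 and 10.39, 10.42, 10.40, 10.22 and 10.42 and did not pass (0.15 ± 0.08, adjusted p = 0.106). Its lowest week 16 array, replicate 4, lay within the week 8 range.

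Both ER stress proteins outside these families rose. Creld2, a protein of the ER lumen induced by ER stress, had its widest spread at week 8, with 9.70, 9.15, 8.94, 8.20 and 9.68, and reached 10.18, 10.31, 10.22, 9.66 and 10.23 at week 16. Replicate 4 of week 16 was the only array of that age within the week 8 range (0.99 ± 0.22, adjusted p = 0.000964). Manf, a secreted neurotrophic factor retained by BiP, was at 11.51, 11.39, 11.40, 11.36 and 11.63 and then 11.83, 11.87, 11.93, 11.56 and 11.89, and replicate 4 was again the lowest at week 16 (0.35 ± 0.09, adjusted p = 0.0035).

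Of the 8 degradation genes, 7 rose in controls by week 16 and Derl2 fell. Sel1l, the adaptor of the HRD1 ubiquitin ligase, was at 9.77, 9.78, 9.31, 9.10 and 10.09 at week 8 and 10.88, 10.79, 10.73, 10.54 and 10.76 at week 16. No week 16 array was as low as the highest week 8 array (1.13 ± 0.19, adjusted p = 9.81e-05). Syvn1, which encodes the ligase HRD1 itself, was at 9.47, 9.49, 9.15, 9.40 and 9.57 and then 9.83, 9.88, 9.79, 9.498 and 9.83. It rose by 0.35 ± 0.09, with replicate 4 of week 16 inside the week 8 range (adjusted p = 0.00441). Herpud1, a membrane protein that assembles with this ligase, was at 11.94, 11.66, 11.20, 10.96 and 11.61 and then 12.21, 12.28, 12.06, 11.87 and 12.05. The groups overlapped through 1 array of each age (0.62 ± 0.19, adjusted p = 0.00888).

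The derlins are membrane proteins through which misfolded clients leave the ER. Derl1 was at 10.98, 10.75, 10.95, 10.71 and 10.95 and then 11.26, 11.28, 11.32, 11.14 and 11.37, with no overlap (0.41 ± 0.08, adjusted p = 0.000405). Derl2 was at 10.32, 10.16, 10.76, 10.75 and 10.30 and then 10.12, 10.07, 10.20, 9.99 and 10.09, a fall of 0.36 ± 0.14 (adjusted p = 0.0305) in which replicates 3 and 4 of week 8 were the highest. These are arrays of low correlation, and without the 3 such arrays the change of Derl2 was -0.17 (adjusted p = 0.257). It was -0.03 with the 3' to 5' gap as a covariate and turned to 0.23 (adjusted p = 0.0727) with the median over its probe sets, so that its direction rests on the probe set used.

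The EDEM proteins, lectins that mark misfolded glycoproteins for disposal, all rose. Edem3 was at 10.37, 10.48, 10.32, 9.94 and 10.27 and then 11.12, 11.33, 11.08, 10.84 and 11.26, with no overlap (0.85 ± 0.13, adjusted p = 4.49e-05). Edem1 was at 9.37, 9.34, 9.08, 9.05 and 9.23 and then 9.73, 9.69, 9.55, 9.48 and 9.74, also with no overlap (0.42 ± 0.15, adjusted p = 0.0203). Edem2 was at 10.11, 9.79, 9.64, 9.41 and 10.09 and then 10.15, 10.09, 10.12, 9.97 and 10.14, a smaller change of 0.29 ± 0.11 (adjusted p = 0.0347) with 2 arrays overlapping. Its sign depended on the fit, as the change was -0.06 with the 3' to 5' gap as a covariate.

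All 5 genes of the sensors and their transcription factors rose in controls by week 16. Atf6 was at 7.79, 7.49, 6.98, 6.64 and 7.55 at week 8 and 8.46, 8.72, 8.67, 8.35 and 8.73 at week 16, the largest rise of the 33 genes in this fit (1.30 ± 0.19, adjusted p = 4.19e-05). The call of Atf6 was kept under all 11 settings, but the size of its rise ran from 0.40 to 1.31. Ern1 was at 9.49, 9.38, 9.55, 9.25 and 9.49 and then 10.11, 10.05, 9.92, 9.93 and 10.16 (0.61 ± 0.14, adjusted p = 0.00141). Neither gene had an overlap between the ages. Eif2ak3 was at 10.18, 9.996, 9.54, 9.30 and 10.01 and then 10.35, 10.63, 10.31, 10.04 and 10.54 (0.57 ± 0.16, adjusted p = 0.00526), with replicate 4 of week 16 inside the week 8 range. The median over its 3 probe sets gave -0.22 instead, so that the direction for Eif2ak3 rests on the probe set used. Xbp1 was at 13.28, 12.96, 12.88, 12.70 and 12.98 and then 13.29, 13.24, 13.31, 13.14 and 13.26 (0.29 ± 0.10, adjusted p = 0.0251); the array measures its mRNA without telling spliced from unspliced forms. Atf4, whose protein is set mainly by translation, was at 11.75, 11.57, 11.59, 11.40 and 11.57 and then 11.73, 11.88, 11.81, 11.75 and 11.96 (0.25 ± 0.09, adjusted p = 0.0237). Both transcription factors had overlapping groups, and each lost its call under 4 of 11 settings.

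Of the 3 effectors of prolonged stress 1 rose, 1 fell and 1 did not pass. Ppp1r15a, or GADD34, which restores translation by dephosphorylating eIF2 alpha, was at 8.02, 7.60, 7.79, 7.80 and 7.78 and then 8.11, 8.15, 7.83, 7.98 and 8.25 and rose (0.27 ± 0.11, adjusted p = 0.0414). Its call was lost under 6 of 11 alternative settings, with 0.03 (adjusted p = 0.811) after quantile normalization, and without 7 of the 10 arrays: control week 8 replicates 2, 3, 4 and 5 and control week 16 replicates 1, 2 and 5 (highest adjusted p = 0.115). Trib3, a pseudokinase induced by ATF4 and CHOP, was at 7.68, 7.12, 7.25, 7.14 and 7.35 and then 6.84, 6.99, 6.68, 6.95 and 6.83. All week 16 arrays of Trib3 were below all week 8 arrays (-0.45 ± 0.14, adjusted p = 0.0105). With the median over its probe sets the change was -0.07 (adjusted p = 0.769), so that this call rests on the probe set used. Ddit3, which encodes the pro-apoptotic factor CHOP, did not pass (-0.02 ± 0.11, adjusted p = 0.902).

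Of the genes of the translocon, the channel through which new proteins enter the ER, Sec61a1 and Ssr1 rose and Sec61b fell. Sec61a1, the pore subunit, was at 11.92, 11.81, 11.42, 11.39 and 11.93 and then 12.36, 12.38, 12.28, 12.18 and 12.39 (0.62 ± 0.12, adjusted p = 0.000385). Ssr1, a subunit of the translocon-associated protein complex, was at 11.26, 11.16, 11.05, 10.92 and 11.17 and then 11.57, 11.69, 11.60, 11.42 and 11.71 (0.49 ± 0.10, adjusted p = 0.000364). Neither had overlapping groups. Sec61b, the small subunit of the channel, was at 12.98, 13.02, 13.16, 13.22 and 13.00 and then 12.81, 12.81, 12.89, 12.80 and 12.80, below every week 8 array (-0.25 ± 0.07, adjusted p = 0.00587).

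**Figure D3:**
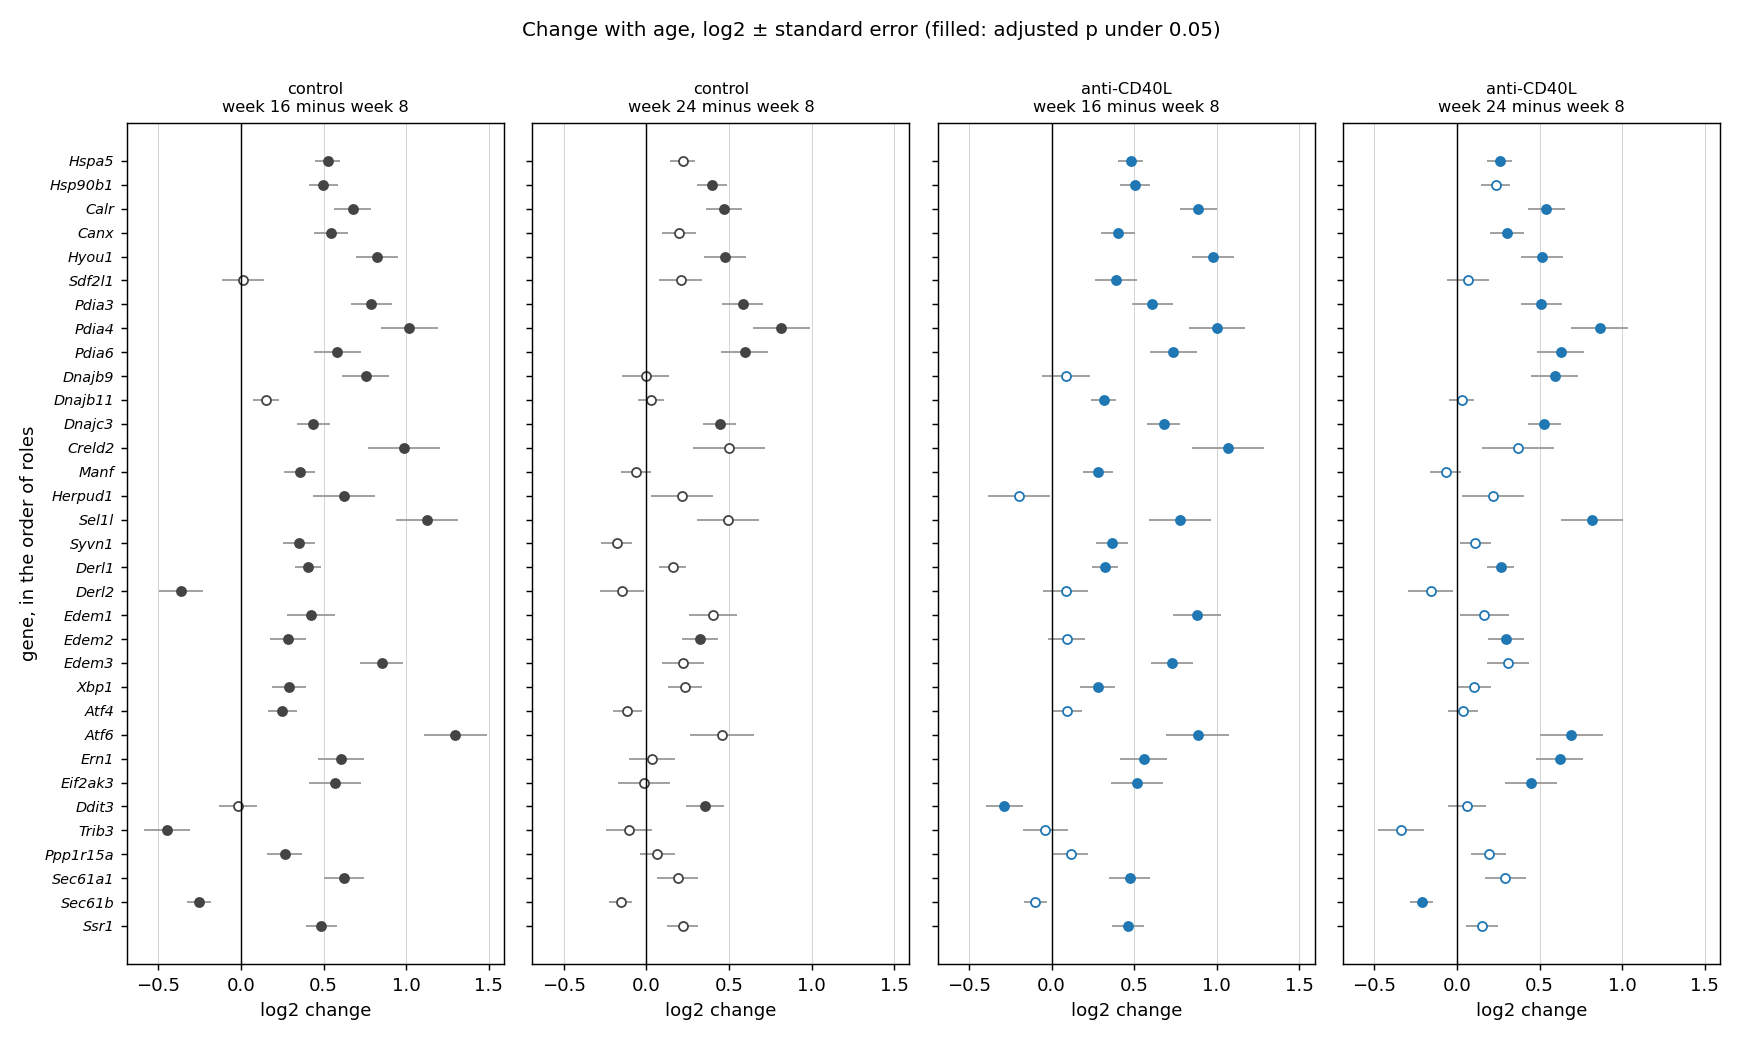
Log2 change with age of each of the 33 genes (points) with its standard error (lines) in controls and in anti-CD40L glands, at week 16 and week 24 against week 8; filled points have an adjusted p under 0.05. In controls 27 genes are called higher at week 16 and 9 at week 24; after anti-CD40L 24 and 15 are.

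In the anti-CD40L glands, 24 of the 33 genes rose and 1 fell from week 8 to week 16, against 24.1% higher and 12.5% lower among all genes tested. The median change of the 33 genes was 0.46, against 0.09 over all genes. The largest rises were Creld2 (1.07 ± 0.22, adjusted p = 0.000946), Pdia4 (1.001 ± 0.17, adjusted p = 0.000219) and Hyou1 (0.98 ± 0.13, adjusted p = 1.85e-05). All 6 ER chaperones and all 3 isomerases were among the 24. The chaperones ran from Sdf2l1 (0.39 ± 0.13, adjusted p = 0.02) to Hyou1, and Sdf2l1 had treated levels of 10.04, 9.87, 10.11, 9.80 and 9.93 at week 8 and 10.04, 10.07, 10.36, 10.73 and 10.49 at week 16. Dnajb11 passed here too, from 9.99, 10.22, 10.25, 10.21 and 10.35 to 10.38, 10.43, 10.55, 10.64 and 10.58 with no overlap (0.32 ± 0.08, adjusted p = 0.00347). Hspa5 reached 13.01 to 13.17 in the treated week 16 arrays from 12.33 to 12.72 at week 8, and Calr 12.08 to 12.36 from 10.99 to 11.59.

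The 8 genes that did not pass in the treated glands were Dnajb9 (0.09 ± 0.14), Herpud1 (-0.20 ± 0.19), Derl2 (0.09 ± 0.14), Edem2 (0.09 ± 0.11), Atf4 (0.09 ± 0.09), Trib3 (-0.04 ± 0.14), Ppp1r15a (0.11 ± 0.11) and Sec61b (-0.10 ± 0.07). Ddit3 fell by 0.29 ± 0.11 (adjusted p = 0.0484). This call of Ddit3 was lost under 5 of 11 settings, with -0.10 (adjusted p = 0.442) for the median over probe sets, and without 8 of the 10 arrays, where anti-CD40L week 8 replicates 2 and 5 are the exceptions (highest adjusted p = 0.152). The rise of Eif2ak3 (0.52 ± 0.16) reversed to -0.51 with the median over its probe sets, which passed in that direction (adjusted p = 0.00219). The parotid markers moved with this step, from a mean of 12.19 at week 8 to 10.27 at week 16, with 1 of 5 called lower and 3 at an unadjusted p under 0.05 in limma. Amy1 went from 13.42 (SD 0.222) to 9.86 (SD 2.36), and with it as a covariate 22 of the 33 genes were called, 21 higher and 1 lower. Among all genes tested 2658 were then called, in place of 4750. Of the fibroblast markers 2 of 6 fell. Of the plasma cell markers 3 of 7 rose and the other 4 had a change below 0 without a call. Their changes ran from -0.38 to 2.46, with a median of -0.04. The 3' to 5' gap was 0.369 at week 8 and 0.260 at week 16 in this arm. With it as a covariate, 23 of the 33 genes were called, 22 higher and 1 lower, and 3387 of all genes tested. The difference between the arms in this change was itself tested over the same arrays, and 0 of the 33 genes were called, against 0.146% of all genes. In limma, 6 of the 33 had an unadjusted p under 0.05, as did 13.6% of all genes tested. The smallest p-values were those of Dnajb9 (-0.67 ± 0.20, adjusted p = 0.14), Herpud1 (-0.82 ± 0.27, adjusted p = 0.156) and Derl2 (0.45 ± 0.19, adjusted p = 0.303).

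By week 24 fewer of the 33 genes differed from week 8 than at week 16, in both arms. In controls 9 were higher and 0 lower, against 8.49% and 4.01% of all genes tested, and the median change was 0.22, against 0.05 over all genes. The isomerases Pdia4 (0.82 ± 0.17, adjusted p = 0.00383), Pdia6 (0.60 ± 0.14, adjusted p = 0.00847) and Pdia3 (0.58 ± 0.12, adjusted p = 0.00414) led the rises. The others were Hyou1 (0.48 ± 0.13), Calr (0.47 ± 0.11), Dnajc3 (0.44 ± 0.10), Hsp90b1 (0.40 ± 0.09), Ddit3 (0.36 ± 0.11, adjusted p = 0.0389) and Edem2 (0.33 ± 0.11, adjusted p = 0.0488). Dnajc3 was at 11.17, 11.30, 11.25, 11.26 and 11.19 in the week 24 controls, above all week 8 arrays. Ddit3 was at 8.03, 8.41, 8.75, 8.40 and 8.41, with only replicate 1 inside the week 8 range. Edem2 kept its call under 1 of 11 settings and had -0.11 with the median over its probe sets, and Ddit3 lost its call under 5. The count was 16 without control week 24 replicate 1, 14 without control week 8 replicate 1 and 6 at the lowest, without control week 8 replicate 4 or control week 24 replicate 2. Among all genes tested these fits called 3228, 2780, 768 and 721 in this order. With the 3' to 5' gap as a covariate 4 were called, namely Hsp90b1, Pdia3, Pdia4 and Dnajc3, and in a fit of the 2 groups alone 0. Among all genes tested 715 and 41 were called under these settings, in place of 1624.

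After anti-CD40L 15 genes were higher and 1 lower at week 24 than at week 8, against 16.5% and 7.12% of all genes tested. The median change was 0.27, against 0.09 over all genes. Pdia4 (0.86 ± 0.17, adjusted p = 0.00202), Sel1l (0.82 ± 0.19, adjusted p = 0.00471), Atf6 (0.69 ± 0.19, adjusted p = 0.0129), Pdia6 (0.63 ± 0.14) and Ern1 (0.62 ± 0.14, adjusted p = 0.00433) rose most. The rises of Dnajb9 (0.59 ± 0.14), Calr (0.54 ± 0.11), Dnajc3 (0.53 ± 0.10), Hyou1 (0.52 ± 0.13), Pdia3 (0.51 ± 0.12) and Eif2ak3 (0.45 ± 0.16) were between 0.45 and 0.59. That of Eif2ak3 rests on the probe set used, since the median over its probe sets was -0.41 and passed as a fall (adjusted p = 0.0155). Those of Canx (0.30 ± 0.10), Edem2 (0.30 ± 0.11), Derl1 (0.27 ± 0.08) and Hspa5 (0.26 ± 0.08) were smaller, and of these Edem2 lost its call under 7 and Canx under 5 of 11 settings. Sec61b fell by 0.21 ± 0.07 (adjusted p = 0.0324), from 13.00, 12.91, 13.08, 12.89 and 12.88 to 12.66, 12.79, 12.79, 12.68 and 12.76, with no overlap. The count was 9 without anti-CD40L week 8 replicate 1, the array with the lowest Hspa5 of its group. That fit called 1381 of all genes tested. With the 3' to 5' gap as a covariate 4 genes were called, namely Calr, Pdia4, Dnajb9 and Dnajc3, and with Amy1 9. Among all genes tested 633 and 1412 were called under these settings, in place of 3074. The 4 comparisons of later weeks with week 8 share the week 8 arrays of their arm. When the treatment effects of weeks 8 and 24 were compared with each other, 0 of the 33 genes were called, against 0.00769% of all genes, and 4 had an unadjusted p under 0.05 in limma, as did 5.84% of all genes. Dnajb9 (0.60 ± 0.20, adjusted p = 0.618), Ern1 (0.59 ± 0.20, adjusted p = 0.618) and Syvn1 (0.29 ± 0.13, adjusted p = 0.825) had the smallest p-values.

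The step from week 16 to week 24, a comparison added after the data were seen, was mostly downward in controls. There 13 genes fell and 1 rose, against 7.39% lower and 5% higher among all genes tested, with a median of -0.25 against 0.01. The falls were Atf6 (-0.84 ± 0.19, adjusted p = 0.00795), Dnajb9 (-0.76 ± 0.14, adjusted p = 0.00244), Sel1l (-0.63 ± 0.19), Edem3 (-0.63 ± 0.13), Eif2ak3 (-0.58 ± 0.16), Ern1 (-0.57 ± 0.14), Syvn1 (-0.53 ± 0.09), Sec61a1 (-0.43 ± 0.12), Manf (-0.42 ± 0.09), Atf4 (-0.37 ± 0.09), Canx (-0.35 ± 0.10), Hspa5 (-0.31 ± 0.08) and Derl1 (-0.25 ± 0.08). Ddit3 rose by 0.37 ± 0.11 (adjusted p = 0.0319). The 3' to 5' gap averaged 0.291 at week 16 and 0.406 at week 24 in these arrays. With it as a covariate 8 genes fell, Hspa5, Dnajb9, Manf, Syvn1, Edem3, Atf4, Atf6 and Ern1. Among all genes tested 717 were then called, in place of 1610. With the median over probe sets Atf6 changed by -0.18 (adjusted p = 0.36), Ern1 by -0.07 (adjusted p = 0.872) and Eif2ak3 by 0.05 (adjusted p = 0.804). None of these sensors was called in that fit. The count of 14 was 9 without control week 16 replicate 2, 8 without replicate 5 of that group, and 9 without control week 24 replicate 1 or 3. Among all genes tested these fits called 650, 658, 566 and 755 in this order.

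In the anti-CD40L glands the same step called 4 genes lower and 1 higher, against 2.88% and 2.5% of all genes. Edem1 (-0.71 ± 0.15, adjusted p = 0.00446), Hyou1 (-0.46 ± 0.13, adjusted p = 0.0299), Manf (-0.35 ± 0.09, adjusted p = 0.025) and Dnajb11 (-0.29 ± 0.08, adjusted p = 0.0273) fell, and Dnajb9 rose (0.51 ± 0.14, adjusted p = 0.035). The median of the 33 genes was -0.18, against 0.01 over all genes. The count of 5 was 1 to 3 without any single one of anti-CD40L week 16 replicates 3, 4 and 5 and week 24 replicates 1, 2 and 4. Those fits called 339 to 633 of all genes tested. The count of 5 was 15 with array weights and 11 with the 3' to 5' gap as a covariate. Among all genes tested 2006 and 1348 were called under these settings, in place of 699.

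The treatment comparisons ask whether blocking CD40L early in life altered these genes at each age. At week 8, which is 4 weeks after the injection by the labels, 0 of the 33 genes were called, as were 0% of all genes tested in the higher direction and 0.0692% in the lower. In limma 2 of the 33 had an unadjusted p under 0.05, as did 15.5% of all genes tested. The smallest p-values were those of Pdia3 (0.30 ± 0.12, adjusted p = 0.27), Atf6 (0.40 ± 0.19, adjusted p = 0.319) and Derl2 (-0.28 ± 0.14, adjusted p = 0.323). Pdia3 was at 11.70, 11.47, 11.41, 10.75 and 11.57 in controls and 11.44, 11.79, 11.48, 11.78 and 11.90 after anti-CD40L. Derl2 was at 10.32, 10.16, 10.76, 10.75 and 10.30 and 10.17, 10.16, 10.37, 10.03 and 10.17. Both pairs of groups overlapped.

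At week 16 the treated glands differed from controls in 2 of the 33 genes, with Dnajb9 lower and Edem1 higher. Among all genes tested 1.31% were higher and 0.577% lower. Dnajb9 was at 11.33, 11.46, 11.18, 11.01 and 11.22 in controls and 10.92, 10.22, 10.16, 10.55 and 10.49 after anti-CD40L. Every treated array was below every control array, and the level was 1.71-fold lower (-0.77 ± 0.14, adjusted p = 0.00361). This call was kept without any 1 of the 10 arrays compared, where the highest adjusted p was 0.0177, and under all 11 alternative settings. Of these, the median over probe sets is no test of Dnajb9, which has 1 probe set, so that its change has no check by other probes. The 3' to 5' gap was 0.291 in these controls and 0.260 in the treated arrays, and with it as a covariate the change of Dnajb9 was -0.76 (adjusted p = 0.00356).

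Edem1 was at 9.73, 9.69, 9.55, 9.48 and 9.74 in the week 16 controls and 10.17, 9.92, 9.87, 10.60 and 10.49 after anti-CD40L. The groups did not overlap, and treated replicates 4 and 5 were the highest (0.57 ± 0.15, adjusted p = 0.0401). The other Edem1 probe set had the opposite sign, -0.22, and with the median of both the change was 0.18 (adjusted p = 0.61). The call ended without 7 of the 10 arrays: control week 16 replicates 1, 2, 3 and 4 and anti-CD40L week 16 replicates 1, 4 and 5, with a highest adjusted p of 0.148. Dnajc3, next by p-value, did not pass (0.32 ± 0.10, adjusted p = 0.093), at 11.41, 11.34, 11.49, 11.81 and 11.69 after anti-CD40L. Herpud1 did not pass either (-0.60 ± 0.19, adjusted p = 0.093), with treated levels of 11.54, 11.89, 11.68, 11.22 and 11.15, of which 4 lay below every control.

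Beside these results, the plasma cell markers averaged 8.02 in the week 16 controls (7.62 to 8.39) and 6.64 in the treated glands (6.49 to 6.81). Of the 7 plasma cell markers tested 4 were lower and 0 higher at week 16. B cell markers averaged 5.70 and 5.13, with 0 of 4 called, and T cell markers 5.69 and 5.06, with 0 of 5 called. Of the 6 acinar markers 1 was higher. Granular duct markers averaged 13.69 and 13.52 and myoepithelial markers 9.09 and 8.83. The fibroblast markers were also lower, at a mean of 10.03 (9.87 to 10.13) in controls and 9.35 (8.77 to 9.84) in treated glands. All 6 had a change below 0, with a median of -0.75, 5 had an unadjusted p under 0.05 in limma, and 1 was called, the matrix proteoglycan Lum (-1.11 ± 0.27, adjusted p = 0.0344). Of the 6 macrophage markers all had a change below 0 and 0 were called, with 3 at an unadjusted p under 0.05 in limma. The part of these cell types in the difference of Dnajb9 was not tested.

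**Figure D4:**
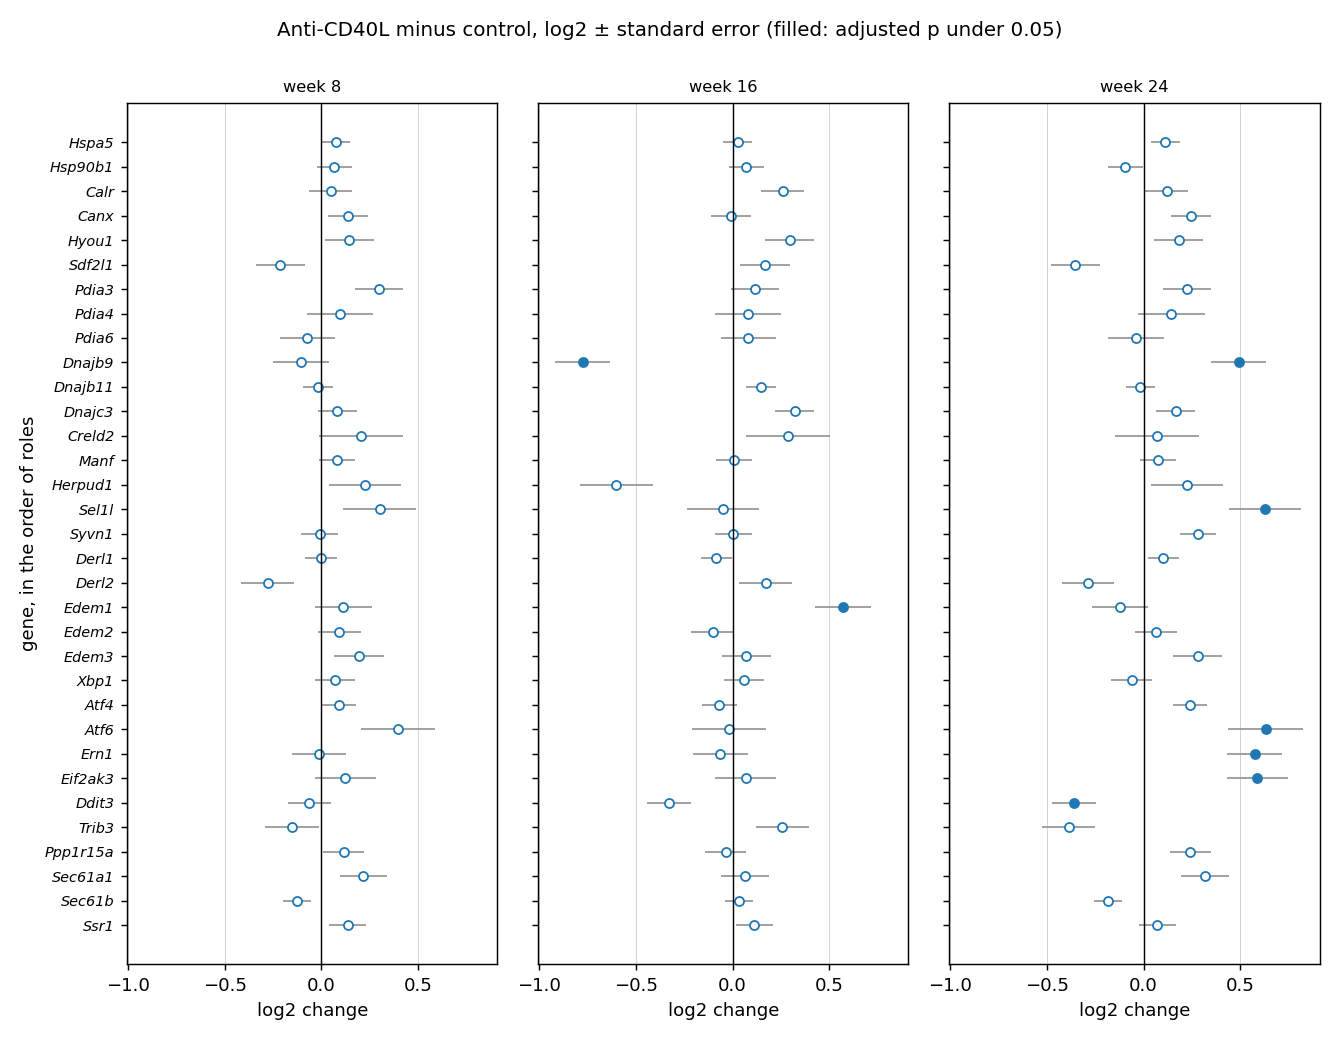
Log2 difference between anti-CD40L and control glands of each of the 33 genes (points) with its standard error (lines) at weeks 8, 16 and 24; filled points have an adjusted p under 0.05. At week 16 Dnajb9 is called lower and Edem1 higher, and at week 24 Dnajb9, Sel1l, Atf6, Ern1 and Eif2ak3 are called higher and Ddit3 lower.

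At week 24 the 3 sensors of the response, together with Sel1l and Dnajb9, were higher in the treated glands and Ddit3 was lower. These are 5 genes higher and 1 lower of 33, against 5.96% higher and 3.49% lower of all genes tested, and 16 of the 33 had an unadjusted p under 0.05 in limma, as did 29.6% of all genes. Atf6 was at 6.89, 8.15, 7.90, 7.98 and 7.83 in controls and 8.47, 8.30, 8.35, 8.26 and 8.51 after anti-CD40L. No treated array was as low as any control, and control replicate 1 was far below the others (0.63 ± 0.19, adjusted p = 0.0394). Ern1 was at 9.17, 9.64, 9.15, 9.82 and 9.55 in controls and 10.12, 9.90, 9.99, 10.23 and 9.94 after anti-CD40L, with no overlap (0.57 ± 0.14, adjusted p = 0.0149). Eif2ak3 was at 9.30, 10.06, 9.83, 9.85 and 9.93 and 10.49, 10.23, 10.45, 10.39 and 10.33, again with no overlap (0.59 ± 0.16, adjusted p = 0.0231).

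Of the 3 sensors, only Atf6 had the same sign in all its other probe sets, which gave 0.09 and 0.10 against 0.63 in the one used. With the median over probe sets, 0 of the 3 sensors were called. The changes were then 0.12 for Atf6 (adjusted p = 0.546), 0.39 for Ern1 (adjusted p = 0.3) and -0.15 for Eif2ak3 (adjusted p = 0.395). The other Eif2ak3 probe sets gave -0.04 and -0.15, and 1 of the 4 other Ern1 probe sets gave -0.27. From week 16 to week 24 the 3 sensors fell in controls in the probe sets used but not in the median over probe sets, as given above. After anti-CD40L they gave -0.19 ± 0.19 for Atf6, 0.06 ± 0.14 for Ern1 and -0.06 ± 0.16 for Eif2ak3 and did not pass. Whether these steps differ between the arms was tested without a call for any of them. Atf6 was at 8.72, 8.63, 8.56, 8.504 and 8.43 in the treated week 16 glands and 7.28, 7.85, 7.49, 7.77 and 8.03 in those of week 8. Ern1 was at 9.99, 10.10, 10.07, 9.98 and 9.73 at week 16 and 8.93, 9.64, 9.10, 9.55 and 9.87 at week 8 after anti-CD40L. Eif2ak3 was at 10.38, 10.44, 10.46, 10.51 and 10.43 and 9.46, 10.28, 9.72, 10.04 and 10.14 at these ages. In each of the 3 genes, the treated week 8 group had the widest spread of the treated groups.

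Sel1l was at 9.44, 10.43, 10.04, 10.19 and 10.43 in the week 24 controls and 11.02, 10.45, 10.57, 10.99 and 10.62 after anti-CD40L. Every treated array was above every control (0.63 ± 0.19, adjusted p = 0.0376). All 4 other Sel1l probe sets had the same sign, with changes of 0.11 to 0.80. The treated glands were at 9.43, 10.02, 9.56, 10.20 and 10.35 at week 8 and 10.63, 10.73, 10.79, 10.74 and 10.55 at week 16. Dnajb9 was at 10.59, 10.91, 10.37, 10.11 and 10.43 in controls and 11.02, 10.66, 11.05, 11.11 and 11.02 after anti-CD40L, where 4 of the 5 treated arrays exceeded all controls. The difference was 0.49 ± 0.14 (adjusted p = 0.0333). Ddit3 was at 8.03, 8.41, 8.75, 8.40 and 8.41 in controls and 8.04, 7.99, 7.98, 8.15 and 8.04 after anti-CD40L, and the groups overlapped through control replicate 1 (-0.36 ± 0.11, adjusted p = 0.0461). Treated Ddit3 levels were 8.07, 7.80, 8.24, 7.94 and 7.87 at week 8 and 7.79, 7.77, 7.66, 7.78 and 7.47 at week 16. At week 16 all treated Ddit3 arrays were below all controls without passing (-0.33 ± 0.11, adjusted p = 0.137).

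The 27 other genes did not pass at week 24. Their differences ran from -0.39 for Trib3 (adjusted p = 0.0686) to 0.32 for Sec61a1 (adjusted p = 0.0893). Among the 6 ER chaperones 0 passed, with Hspa5 at 0.11 ± 0.08 and Hsp90b1 at -0.10 ± 0.09, and none of the 3 isomerases did. Syvn1 (0.28 ± 0.09, adjusted p = 0.0567) and Atf4 (0.24 ± 0.09, adjusted p = 0.0795) were nearest to the threshold on the higher side beside Sec61a1.

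The 3' to 5' gap moved with treatment at week 24, at 0.406 (SD 0.121) in controls and 0.200 (SD 0.0359) in treated glands. With it as a covariate 0 of the 33 genes were called, and among all genes tested 23 were, in place of 1229. The changes became 0.16 for Atf6, 0.40 for Ern1, 0.26 for Eif2ak3, 0.21 for Sel1l, 0.60 for Dnajb9 and -0.35 for Ddit3. When only the 10 arrays of this age were fitted 0 of the 33 were called as well, and 129 of all genes tested. By gene, the call was lost without 3 of the 10 arrays for Ern1 and for Eif2ak3, without 5 for Sel1l, without 7 for Atf6 and for Ddit3, and without 8 for Dnajb9, which kept it without control replicate 2 or anti-CD40L replicate 2. Ddit3 also lost it under 6 of 11 settings. Without control week 24 replicate 1 the count was 1, and it was 1 without control replicate 3 or anti-CD40L replicate 1, 3 without control replicate 5 or anti-CD40L replicate 3, 2 without anti-CD40L replicate 5, 0 without anti-CD40L replicate 4 and 10 without control replicate 4. Among all genes tested these fits called 237, 514, 527, 1042, 698, 676, 397 and 1933 in this order, in place of 1229. Without the 3 arrays of low correlation, 5 of the 33 and 632 of all genes tested were called, and Sel1l was not (0.46, adjusted p = 0.0779). Plasma cell markers averaged 8.48 in these controls and 7.41 in treated glands, with 4 of 7 lower, and B cell markers 7.12 and 5.28, with 4 of 4 lower. Of the T cell markers 4 of 5 were lower, and of the 6 acinar markers 2 were higher. Granular duct markers averaged 13.56 and 13.68 and myoepithelial markers 9.08 and 9.27. The fibroblast markers were higher after treatment, at 9.63 in controls (9.48 to 9.86) and 10.11 in treated glands (9.89 to 10.66). All 6 had a change above 0, with a median of 0.49, and the collagen gene Col1a2 (0.84 ± 0.24, adjusted p = 0.0319) and the receptor gene Pdgfra (0.74 ± 0.16, adjusted p = 0.00819) were called. The part of these cell types in the differences was not tested.

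**Figure D5:**
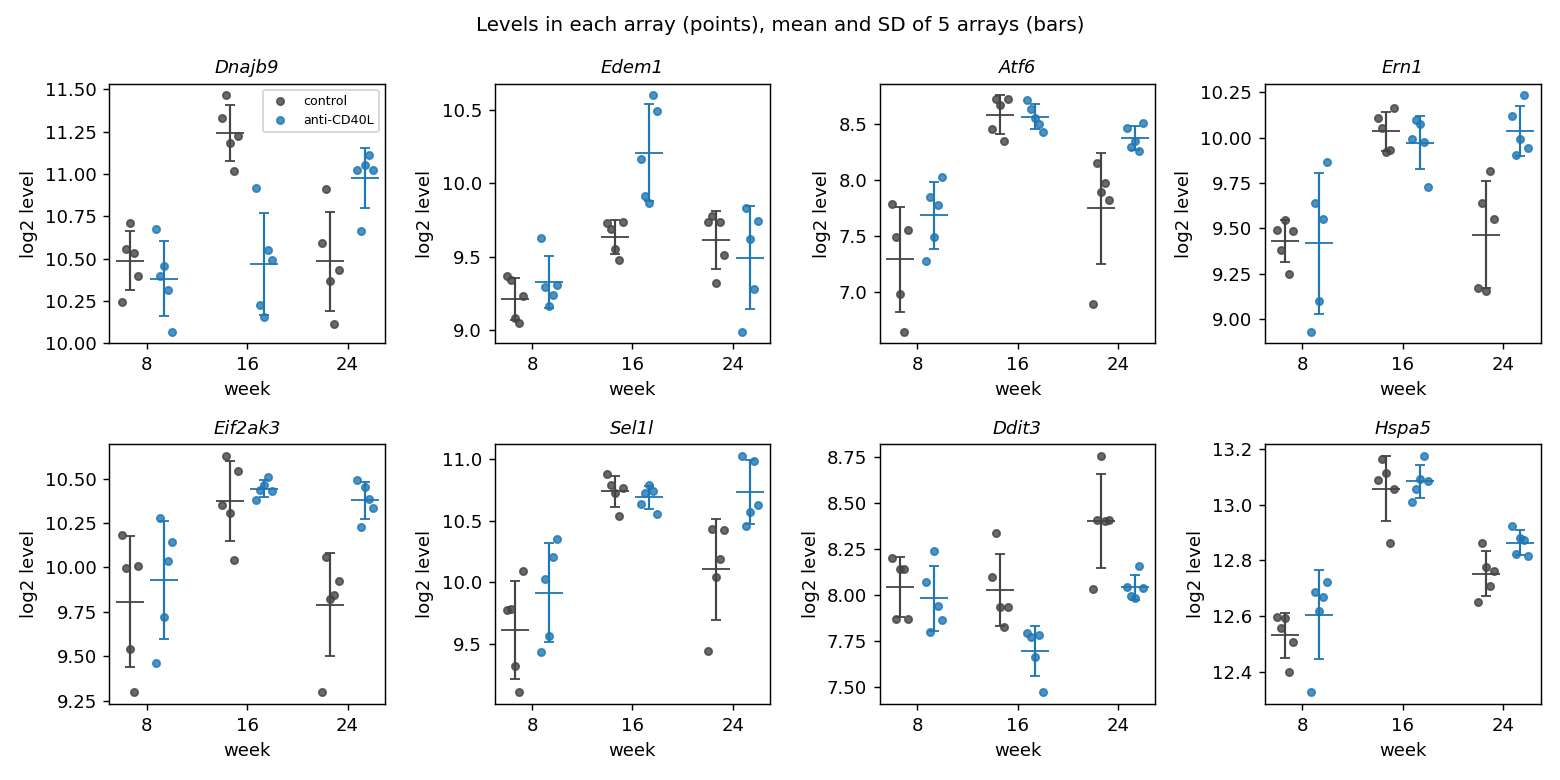
Log2 levels in each array (points) of Dnajb9, Edem1, Atf6, Ern1, Eif2ak3, Sel1l, Ddit3 and Hspa5 by week in control and anti-CD40L glands, with the mean and SD of 5 arrays (bars). Dnajb9 peaks at week 16 in controls, with a mean of 11.24, and is highest at week 24 after anti-CD40L, with a mean of 10.97.

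In Dnajb9 the difference between treatments was called in opposite directions at weeks 16 and 24. Its treated week 8 arrays were at 10.67, 10.39, 10.46, 10.31 and 10.07 and its week 8 controls at 10.24, 10.56, 10.71, 10.53 and 10.40, with a difference of -0.11 ± 0.14 (adjusted p = 0.751). The difference was -0.77 at week 16 and 0.49 at week 24. The change between these differences, a comparison added after the data were seen, was 1.26 ± 0.20 (adjusted p = 0.00345), and Dnajb9 was the 1 of 33 genes called, against 1.16% of all genes tested. This call was kept without any 1 of the 20 arrays, with a highest adjusted p of 0.0111, and under all 11 alternatives, where again the median over probe sets is no test. The fibroblast markers turned from lower to higher between the same ages, with a median difference of -0.75 at week 16 and 0.49 at week 24. For the change between these differences all 6 were above 0, with a median of 1.10, and Col1a2 (1.70 ± 0.34, adjusted p = 0.0164) and Pdgfra (0.99 ± 0.23, adjusted p = 0.0289) were called. Granular duct markers averaged 13.69 in controls and 13.52 in treated glands at week 16, and 13.56 and 13.68 at week 24. Myoepithelial markers averaged 9.09 and 8.83, and then 9.08 and 9.27, so that both means turned as well. The acinar mean was higher after treatment at both ages, and the means of the other marker lists were lower at both. The part of these cell types in the change of Dnajb9 was not tested. In the planned comparisons with week 8, given above, the change of its treatment effect did not pass. Edem1 (-0.69 ± 0.21, adjusted p = 0.0937) and Trib3 (-0.65 ± 0.20, adjusted p = 0.0953) had the next smallest p-values. The count was 3 without control week 24 replicate 4, 2 in a fit of the groups compared and 5 with array weights. Among all genes tested these settings called 352, 280 and 766, in place of 151.

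Other genes of the ER and of stress responses, in lists without any of the 33, were counted in the same fit. At week 16, 3 of 28 further chaperones and folding enzymes were higher after anti-CD40L and 0 lower: the proline isomerase Fkbp11 (0.52 ± 0.14, adjusted p = 0.0457), the J-domain protein Dnajc1 (0.45 ± 0.11, adjusted p = 0.0307) and the thioredoxin-like Tmx1 (0.36 ± 0.10, adjusted p = 0.0457). Of 37 genes of the integrated stress response and other regulators 2 were higher, Vldlr (0.84 ± 0.20) and the serine synthesis enzyme Psat1 (0.74 ± 0.19). Of 38 genes of ER to Golgi transport 1 was higher, the COPII coat subunit Sec13 (0.41 ± 0.10). Among 25 further degradation genes, 30 translocon, signal peptidase and glycosylation genes and 18 cytosolic heat shock genes 0 were called at this age.

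At week 24 the degradation genes Ubqln2 (0.68 ± 0.15, adjusted p = 0.00968), Herpud2 (0.41 ± 0.12) and Marchf6 (0.31 ± 0.09) were higher, 3 of 25. Of the regulators 3 of 37 were higher, the transcription factors Creb3l2 (0.86 ± 0.20, adjusted p = 0.0128) and Bhlha15 (0.77 ± 0.19, adjusted p = 0.0134) and the kinase gene Map3k5 (0.39 ± 0.12). Bhlha15, or MIST1, is a regulator of secretory cells and is also in the acinar marker list. Sec63, a J-domain protein of the translocon, was the 1 of 30 higher (0.57 ± 0.19), and the COPII GTPase Sar1b the 1 of 38 transport genes lower (-0.31 ± 0.10). In the list of 18 cytosolic heat shock genes, which also holds the mitochondrial chaperonin genes Hspd1 and Hspe1, the inducible HSP70 genes Hspa1a (0.81 ± 0.20, adjusted p = 0.0153) and Hspa1b (0.74 ± 0.12, adjusted p = 0.00107) were higher and Hspe1 lower (-0.38 ± 0.09). Hspa1a and Hspa1b are near-identical copies whose probes may share signal. None of the 28 further chaperones was called. Among all genes tested, 1229 were called at this age. With the 3' to 5' gap as a covariate 23 were, and in a fit of the arrays of this age alone 129. Which genes of the 6 lists keep a call under such alternatives was not examined, here or in the other comparisons. At week 8 none of the 6 lists held a called gene.

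From week 8 to week 16 in controls these lists moved mostly upward, as 28.4% of all genes did. With the 3' to 5' gap as a covariate the calls among all genes at this step went from 6046 to 620. In ER to Golgi transport 26 of 38 rose and 2 fell, led by Ergic1 (1.17 ± 0.24), Sec31a (1.09 ± 0.32) and Copa (1.06 ± 0.27). Among further chaperones and folding enzymes 12 of 28 rose and 3 fell. The largest rises were those of the disulfide oxidase Ero1a (1.49 ± 0.23), Dnajb14 (1.204 ± 0.19) and Pdia5 (1.195 ± 0.39). In the degradation list 14 of 25 rose and 0 fell. Its largest change was that of Sec16a (1.196 ± 0.30), which is known as a scaffold of ER exit sites for COPII transport and not as a degradation factor, followed by Ubxn4 (0.75 ± 0.14) and the segregase Vcp (0.62 ± 0.15). Of the translocon, signal peptidase and oligosaccharyltransferase genes 17 of 30 rose and 5 fell, with Sec63 (0.86 ± 0.19) first. Of the regulators 18 of 37 rose and 5 fell, with Creb3l1 (1.56 ± 0.50) up and Chac1 (-1.15 ± 0.39), a target of ATF4 and CHOP, down. Of the cytosolic heat shock genes 14 of 18 rose and 1 fell, with Hspa1a (0.88 ± 0.20) and Hsph1 (0.85 ± 0.17) first. The medians of these 6 lists were 0.42, 0.25, 0.26, 0.30, 0.31 and 0.41 in the order given, against 0.50 for the 33 genes and 0.06 for all genes tested.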

How the data were processed

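Each array measured cRNA made from 2 ug of the total RNA of a gland sample. The deposited values were taken as log2 intensities, because they run from 2.757 to 14.457 with array medians of 5.487 to 5.537, and were not transformed further. Of the steps the authors took before they deposited these log2 values, the processing notes name limma alone, without a version; the probe summary and normalization are not stated in the sources used here. Of 45101 probe sets, 34945 carried exactly 1 gene symbol, for 18193 genes, and each gene was read from the one with the highest mean.

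Testing required a level above the array's own median in at least 5 arrays. In limma 3.58.1 (R 4.3.3), 1 linear model of the 6 group means over the 30 arrays gave 9 planned and 3 added comparisons. P-values were adjusted by Benjamini-Hochberg over 12998 genes, and an adjusted p under 0.05 was a call. Errors beside changes are standard errors of that model. The members and lists were chosen with earlier results of these data known. Values in every array are given for genes that passed, or otherwise had the smallest p, but not in every comparison where they did. Elsewhere changes or ranges are given. Of the other lists up to 6 called genes per comparison, by size, were eligible to be named. Promoters were searched with Python 3.11.15 and figures drawn with matplotlib 3.10.9. The model was tested on simulated data. The number of arrays limits the precision. Alternatives were other scalings and filters, the median over probe sets, fewer groups, array weights, a replicate block, covariates and leaving out arrays.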

Additional observations from a re-analysis of the deposited data

Results flagged for a closer look

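In 11 of the 198 sets of 5 arrays formed by a gene and a group (5.56%), 1 array lay far from the other 4, measured as its gap to the nearest over the range of the group. Chance gives such a gap in about 1 of 20 sets. Control week 16 replicate 4 was the lowest of its group in 4 of them: Dnajb11 (10.219, with 10.39 to 10.42 in the others), Creld2 (9.664), Manf (11.558) and Syvn1 (9.498). Control week 24 replicate 1 was the lowest in Herpud1 (10.791, with 11.88 to 11.97 in the others) and in Atf6 (6.89, with 7.83 to 8.15), and it is also 1 of the 3 arrays of low correlation.

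Among treated arrays, anti-CD40L week 8 replicate 1 was the lowest in Hspa5 (12.326) and replicate 3 of that group in Edem2 (9.773). Anti-CD40L week 24 replicate 2 was the lowest in Dnajb9 (10.662), the array that overlapped the controls. Anti-CD40L week 16 replicate 4 was the highest in Xbp1 (13.415) and control week 16 replicate 3 in Sec61b (12.888).

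The treatment effect on Dnajb9 differed between weeks 16 and 24 by 1.2644 (adjusted p = 0.00345, limma with Benjamini-Hochberg), a comparison added after the data were seen. At week 16 all 5 treated arrays were below all controls, and at week 24 4 of 5 were above all controls.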

How the results depend on the processing

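Called genes kept direction and call in 1014 cases under an alternative other than leaving out 1 array, kept direction and lost the call in 165, and changed sign in 9. The cause of these changes was not tested. The sign changes came from the median over a gene's probe sets: Eif2ak3 gave -0.15 for treatment at week 24, -0.22 and -0.51 from week 8 to week 16 in controls and treated glands, -0.41 from week 8 to week 24 in treated glands and 0.051 from week 16 to week 24 in controls; Derl2 gave 0.23 and Edem2 -0.051 from week 8 to week 16 and Edem2 -0.11 from week 8 to week 24 in controls. Edem2 was also at -0.062 with the 3' to 5' gap as a covariate.

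Quantile normalization, the filter at the 70th percentile and the median over probe sets each gave 9 called genes for treated glands from week 16 to week 24, in place of 5, and the last gave 1 in place of 2 for treatment at week 16. Over all genes they called 877, 727 and 631 for that step of the treated glands, in place of 699. For treatment at week 16 the median over probe sets called 237 of all genes, in place of 245. A fit of only the groups compared gave 0 for treatment at week 24 (6) and for controls from week 8 to week 24 (9). It gave 5 for controls (14) and 13 for treated glands (5) from week 16 to week 24, and 2 for the change of effect between those weeks (1). Over all genes tested this fit gave 129 for treatment at week 24 (1229) and 41 for controls from week 8 to week 24 (1624). From week 16 to week 24 it called 633 of all genes in controls (1610), 1570 in treated glands (699) and 280 for the change of effect (151). Array weights gave 6 for treatment at week 16 (2), 1 for the change of effect from week 8 to week 16 (0), 15 for treated glands from week 16 to week 24 (5) and 5 for the change of effect (1). Over all genes tested array weights gave 1557, 263, 2006 and 766 in this order (245, 19, 699 and 151). With the 3' to 5' gap as a covariate the counts were 0 for treatment at week 24 (6), 9 and 4 for controls at weeks 16 and 24 against week 8 (30 and 9), 4 for treated glands at week 24 against week 8 (16), and 8 and 11 from week 16 to week 24 (14 and 5). Over all genes tested they were 23, 620, 715, 633, 717 and 1348 in this order (1229, 6046, 1624, 3074, 1610 and 699). Amy1 as a covariate gave 9 for treated glands from week 8 to week 24 (16), and 1412 of all genes tested (3074). Leaving out the 3 arrays of low correlation, an alternative added after the data were seen, gave 12 for treated glands from week 16 to week 24 (5). Of all genes tested 1083 were then called (699).

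Leaving out 1 array gave 0 to 0 called genes for treatment at week 8, 1 to 2 at week 16 and 0 to 10 at week 24. In controls the ranges were 24 to 30 and 6 to 16 at weeks 16 and 24 against week 8 and 8 to 16 from week 16 to week 24. After anti-CD40L they were 21 to 25, 9 to 19 and 1 to 5. For the change of effect they were 0 to 0 for both later weeks against week 8 and 1 to 3 from week 16 to week 24.

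Same-numbered arrays of different groups did not deviate together: over 75 pairs the median correlation was -0.032, and 18 exceeded 0.1. With a replicate block the counts were 0, 2 and 5 for treatment at weeks 8, 16 and 24, where Ddit3 lost its call (adjusted p = 0.0525), 30 and 8 in controls and 24 and 15 in treated glands against week 8. Over all genes tested that block gave 4, 205 and 1137 for treatment, 5936 and 1433 in controls and 4631 and 2974 in treated glands. Quantile normalization moved the median of all genes from 0.06 to -0.06 for controls, and from 0.09 to -0.05 for treated glands, between weeks 8 and 16, and from 0.09 to -0.02 for treated glands at week 24; the medians of the 33 genes were then 0.43, 0.35 and 0.20. The other probe sets of called genes shared the sign in 41 of 51 cases for controls from week 8 to week 16 and in 9 of 13 for treatment at week 24. Each group's 5 arrays and signal near the array median limit what small changes can be seen.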

Other observations

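In the treated glands, the lists of other ER and stress genes also rose from week 8 to week 16, where 24.1% of all genes tested did. In ER to Golgi transport 28 of 38 rose and 0 fell, with Ergic1 (1.05 ± 0.24), the cargo lectin Lman1 (0.83 ± 0.14) and Sec23b (0.79 ± 0.27) first. Of 28 chaperones and folding enzymes 20 rose and 2 fell, with Dnajb14 (1.22 ± 0.19), Ero1a (1.12 ± 0.23) and Pdia5 (1.09 ± 0.39) first. Of 25 degradation genes 9 rose and 0 fell, with the ubiquitin-conjugating enzyme Ube2j1 (0.58 ± 0.13) first, and of 30 translocon, signal peptidase and oligosaccharyltransferase genes 16 rose and 1 fell, with Sec63 (0.89 ± 0.19) and the catalytic subunit Stt3b (0.72 ± 0.10) first. Of 37 regulators 10 rose and 2 fell, with Creb3l2 (0.69 ± 0.20) up and Creb3l3 (-0.67 ± 0.23) and Stc2 (-0.62 ± 0.14) down. Of 18 cytosolic heat shock genes 8 rose and 0 fell, with Hsph1 (0.70 ± 0.17) first.

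At week 24 against week 8 these lists held fewer calls. In controls, where 8.49% of all genes tested rose and 4.01% fell, 1 of 28 chaperones and folding enzymes rose, Dnajc1 (0.57 ± 0.11), and 1 fell, Cnpy2 (-0.25 ± 0.08). Among translocon, signal peptidase and oligosaccharyltransferase genes 5 of 30 rose, with Magt1 (0.43 ± 0.10) and Stt3b (0.41 ± 0.10) first, and Srp19 fell (-0.37 ± 0.11). After anti-CD40L, where 16.5% of all genes rose and 7.12% fell, 5 of 28 chaperones and folding enzymes rose, with Dnajb14 (0.79 ± 0.19) first, and among the 37 regulators 5 rose and 4 fell, the falls led by the one-carbon and serine enzymes Mthfd2 (-0.69 ± 0.17) and Psat1 (-0.69 ± 0.19). From week 16 to week 24 in controls, where 7.39% of all genes fell and 5% rose, 10 of 18 cytosolic heat shock genes fell and 0 rose, among them Hspa1a (-0.89 ± 0.20), Hsph1 (-0.89 ± 0.17) and Bag3 (-0.80 ± 0.16). After anti-CD40L, where 2.88% of all genes fell, 1 of 18 fell at that step, Hsph1 (-0.62 ± 0.17), and the difference between the arms in the number of calls was not tested.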
